A study of Arabidopsis thaliana with 12 samples.

Results

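Aliphatic glucosinolates are sulfur-rich defence compounds that Arabidopsis makes from methionine. Their synthesis was followed through 10 genes chosen by locus from the 36917 loci of the deposited table: the chain elongation genes BCAT4 (AT3G19710), MAM1 (AT5G23010) and MAM3 (AT5G23020); the core genes CYP79F1 (AT1G16410), CYP79F2 (AT1G16400), CYP83A1 (AT4G13770), SOT17 (AT1G18590) and SOT18 (AT1G74090); and the transcription factor genes MYB28 (AT5G61420) and MYB29 (AT5G07690). The libraries came from whole plants of 4 genotypes with 3 libraries each: wild type of the accession Col-0, the mutant djc31 (line SALK_034886), the mutant djc62 (line SALK_050913), and plants that carry both mutations, the double mutant djc31 djc62. Both targeted genes encode co-chaperones, proteins that assist heat shock protein folding machines, and each mutant line is a single insertion allele. All plants grew on soil under long days to the 4-leaf stage, with no stress treatment named in the labels. The labels do not say whether replicates were separate sowings, so p-values cover the spread of these libraries alone, and that spread may be technical.

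Glucosinolate synthesis from methionine starts with chain elongation, a cycle that resembles leucine synthesis. BCAT4 removes the amino group of methionine, and the methylthioalkylmalate synthases MAM1 and MAM3 add a carbon unit in each turn of the cycle. The cytochromes CYP79F1 and CYP79F2 then turn the elongated amino acids into aldoximes, CYP83A1 oxidises these, further enzymes add sulfur and glucose, and the sulfotransferases SOT17 and SOT18 add the final sulfate. MYB28 and MYB29 are the main transcription factors known to switch these enzyme genes on. On wounding, myrosinases split glucosinolates into toxic products such as isothiocyanates.

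The libraries held 13.6 to 31.1 M reads, with a median of 25.8 M, and values are given as the authors' normalised read counts. All 10 genes passed the filter on low values, and the smallest number of reads behind any of their values was 36, for CYP79F2. DJC31 had a mean of 726.7 ± 49.3 (SD, n = 3) in wild type, 115.0 ± 30.8 in djc31, 878.7 ± 63.9 in djc62 and 47.5 ± 7.79 in double mutant plants. DJC62 had 516.2 ± 76.1 in wild type, 412.8 ± 93.5 in djc31, 161.1 ± 50 in djc62 and 75.7 ± 17.6 in double mutant plants, so each target was lowest in the lines labelled as its mutants. Transcript lengths were not used, so levels are compared between genotypes and not between genes. Because whole plants were read, fewer cells of a type and less RNA per cell cannot be told apart. MAM1 and MAM3 lie side by side, as do CYP79F1 and CYP79F2, in the RefSeq annotation of TAIR10.1, and each pair is made of close copies. The sources used here do not say how reads that match both copies were counted, so values within a pair may be split between its members. The strand setting is not given either, and BCAT4 overlaps AT3G19700 and SOT18 overlaps AT1G74088 in that annotation.

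The chain elongation genes were high in djc62 and in the double mutant, and nearer to wild type in djc31. MAM1 stood at 5610, 5410 and 5513 in wild type, at 7497, 6069 and 7029 in djc31, at 11428, 8584 and 10099 in djc62, and at 10746, 9741 and 10317 in the double mutant. Every djc62 and double mutant library lay above every wild-type and djc31 library, and the djc31 libraries lay above wild type. MAM1 rose in djc62 by 0.86 ± 0.11 on the log2 scale (SE; limma, Benjamini-Hochberg adjusted p = 2.43e-05) and in the double mutant by 0.90 ± 0.11 (adjusted p = 1.88e-05). Its difference in djc31, 0.31 ± 0.11, had an adjusted p of 0.05005 and stayed just outside the threshold of 0.05. That djc31 difference passed without djc31 replicate 2 (adjusted p = 0.0239), without djc62 replicate 1 (0.0333), without djc62 replicate 2 (0.0391), and in edgeR (0.0475) and DESeq2 (0.0251) on the recovered reads. It also passed with the replicate number as a block (0.0386), with TMM factors (0.0459), with a filter at 50 (0.0462) and with a pseudocount of 5 (0.0493).

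MAM3 makes the longer side chains in addition to short ones. It read 213.4, 229.0 and 245.8 in wild type, 314.6, 330.8 and 351.6 in djc31, 963.4, 680.0 and 942.6 in djc62, and 796.6, 645.9 and 753.9 in the double mutant. The wild-type libraries were lowest, the djc31 libraries came next, and neither overlapped with djc62 or the double mutant, which overlapped with each other. MAM3 rose by 0.53 ± 0.15 in djc31 (adjusted p = 0.0109), by 1.89 ± 0.15 in djc62 (adjusted p = 4.32e-08) and by 1.67 ± 0.15 in the double mutant (adjusted p = 2.65e-07). The djc31 call was lost when libraries were scaled to their total counts, an alternative chosen after seeing the data (adjusted p = 0.0722).

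BCAT4, the aminotransferase at the entry of the cycle, was also high in djc62 and in the double mutant. Its values were 1974, 1824 and 2340 in wild type, 2295, 2202 and 2071 in djc31, 3933, 3107 and 3840 in djc62, and 4100, 3563 and 3779 in the double mutant. Wild type and djc31 overlapped, and all 6 libraries of djc62 and the double mutant lay above both. BCAT4 rose by 0.83 ± 0.12 in djc62 (adjusted p = 4.58e-05) and by 0.90 ± 0.12 in the double mutant (adjusted p = 2.23e-05), while the djc31 difference was 0.10 ± 0.12 (adjusted p = 0.546).

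**Figure D1:**
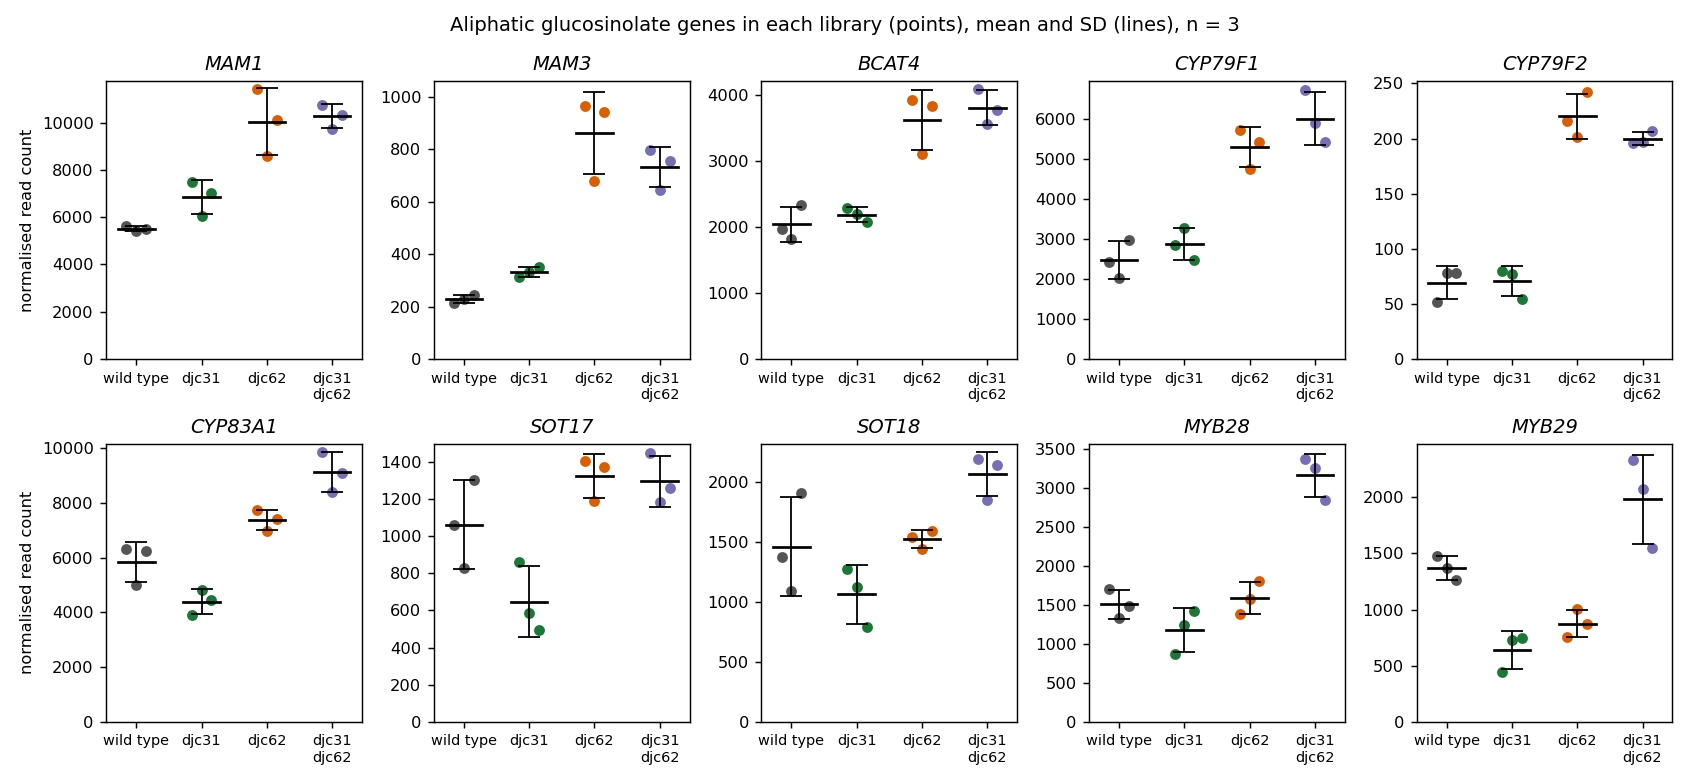
Normalised read counts of the 10 genes in each of the 12 libraries, 1 panel per gene, with points for libraries and lines for the genotype mean and SD; each panel has its own axis, so heights are not compared between genes. MAM1, MAM3, BCAT4, CYP79F1 and CYP79F2 are high in djc62 and in the double mutant, whereas MYB28 is high in the double mutant alone, where it reads 2842 to 3372.

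The aldoxime-forming cytochromes also rose in djc62 and in the double mutant. CYP79F1, which accepts short and long chains, read 2427, 2024 and 2966 in wild type, 2851, 3283 and 2486 in djc31, 5727, 4745 and 5422 in djc62, and 6710, 5890 and 5417 in the double mutant. Its djc31 libraries overlapped with wild type, and its djc62 and double mutant libraries stood above both and overlapped with each other. CYP79F1 rose by 1.11 ± 0.14 in djc62 (adjusted p = 1.32e-05) and by 1.29 ± 0.14 in the double mutant (adjusted p = 3.12e-06). CYP79F2, which acts on long chains, was the gene with the fewest reads of the 10. It had 51.8, 77.9 and 77.7 in wild type, 79.6, 77.3 and 54.9 in djc31, 215.5, 201.8 and 242.6 in djc62, and 196.1, 197.2 and 206.7 in the double mutant. Again wild type and djc31 covered the same range, well below the other genotypes. CYP79F2 rose by 1.68 ± 0.21 in djc62 (adjusted p = 1.73e-05) and by 1.54 ± 0.21 in the double mutant (adjusted p = 4.95e-05).

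CYP83A1, the next oxidation step, was the enzyme gene that moved in opposite directions in the single mutants. It read 6310, 5011 and 6242 in wild type, 3920, 4812 and 4460 in djc31, 7740, 6998 and 7437 in djc62, and 9876, 8425 and 9097 in the double mutant. The 4 genotypes did not overlap, with djc31 lowest and the double mutant highest. CYP83A1 fell by 0.41 in djc31 (SE 0.11, adjusted p = 0.0121), rose by 0.34 ± 0.11 in djc62 (adjusted p = 0.0333), and rose by 0.65 ± 0.11 in the double mutant (adjusted p = 0.000423). The djc31 call was lost without wild type replicate 1 (adjusted p = 0.0673) and in the fit of those genotypes alone (0.0512). The djc62 call was lost without wild type replicate 2 (0.172), without djc62 replicate 1 (0.0899), without djc62 replicate 3 (0.0898), with no filter on low values (0.0532) and with upper-quartile factors (0.0609).

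The sulfotransferases of the last step were called in djc31 for SOT17 and in the double mutant for SOT18. SOT17 read 1060, 826.7 and 1303 in wild type, 861.4, 584.4 and 495.3 in djc31, 1408, 1190 and 1373 in djc62, and 1449, 1184 and 1258 in the double mutant. Wild type overlapped with each mutant, and djc31 lay below djc62 and the double mutant. SOT17 fell by 0.73 in djc31 (SE 0.18, adjusted p = 0.00588), and its differences of 0.34 ± 0.18 in djc62 and 0.31 ± 0.18 in the double mutant did not pass (adjusted p = 0.188 and 0.225). With libraries scaled to total counts the double mutant difference passed (adjusted p = 0.0126).

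SOT18, which like SOT17 prefers methionine-derived substrates, read 1371, 1093 and 1908 in wild type, 1270, 1121 and 787.7 in djc31, 1537, 1437 and 1587 in djc62, and 2187, 1850 and 2142 in the double mutant. Wild type replicate 3, at 1908, overlapped with the double mutant, and the djc62 libraries lay inside the wild-type range. SOT18 rose in the double mutant by 0.53 ± 0.18 (adjusted p = 0.0334). That call was lost without wild type replicate 1 (adjusted p = 0.0859), wild type replicate 2 (0.176), double mutant replicate 1 (0.11) or double mutant replicate 3 (0.0993), and with no filter (0.0596). The djc31 difference of -0.45 ± 0.18 did not pass (adjusted p = 0.0721). It passed without wild type replicate 2 (0.0155) or djc31 replicate 1 (0.0223), and when libraries were scaled to total counts (0.0107).

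The regulator genes did not follow the order of the early enzymes. MYB28 read 1705, 1335 and 1479 in wild type, 868.1, 1244 and 1419 in djc31, 1382, 1575 and 1800 in djc62, and 3372, 3254 and 2842 in the double mutant. The single mutants and wild type overlapped, and all 3 double mutant libraries stood clear above them. MYB28 rose by 1.07 ± 0.16 in the double mutant (adjusted p = 7.93e-05). Its differences from wild type were 0.07 ± 0.16 in djc62 (adjusted p = 0.776) and -0.38 ± 0.16 in djc31 (adjusted p = 0.0826, and 0.0205 without djc31 replicate 3).

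MYB29 was lower in both single mutants. It read 1480, 1374 and 1264 in wild type, 444.7, 724.0 and 744.6 in djc31, 752.5, 1001 and 871.0 in djc62, and 2328, 2073 and 1549 in the double mutant. Both single mutants lay below wild type without overlap, and the double mutant lay above it without overlap. MYB29 fell by 1.14 on the log2 scale in djc31 (SE 0.18, adjusted p = 0.000149) and by 0.66 in djc62 (SE 0.18, adjusted p = 0.013), and rose by 0.51 ± 0.18 in the double mutant (adjusted p = 0.043). The djc62 call was lost without wild type replicate 1 (0.0519), without djc62 replicate 1 (0.0576) and with scaling to total counts (0.0655). The double mutant call was lost without any 1 of the wild-type replicates (0.0585, 0.0867 and 0.118), without djc62 replicate 3 (0.0537), double mutant replicate 1 (0.194) or double mutant replicate 2 (0.128), and with no filter (0.0733). MYB29 stood at 85.4% to 103% of the MYB28 value in the wild-type libraries and at 48.4% to 69% in the 9 mutant libraries; the ratio was not tested.

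Against wild type, the 10 genes were mostly higher in djc62 and the double mutant, and split in djc31. In djc31, 1 rose and 3 fell, where 13.3% of the 19975 loci tested rose, 14.2% fell and 27.5% were called in either direction, and the median log2 difference of the 10 was -0.17 beside -0.009 over all loci tested. In djc62, 6 rose and MYB29 fell, where 13.7% of loci tested rose, 13% fell and 26.7% were called in either direction. The median of the 10 was 0.58 beside -0.005 over all loci. In the double mutant 9 rose, all but SOT17, where 13.8% of loci tested rose, 15.5% fell and 29.2% were called in either direction, and the median was 0.90 beside 0.025. These comparisons share the wild-type libraries.

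Markers of leaf tissue moved in the double mutant as well. Of 6 leaf markers, 4 fell there against wild type, where 15.5% of loci tested fell, and 1 fell with no filter on low values. Their summed value was 915403 to 1012708 in the double mutant beside 1426899 to 1771081 in wild type. FBA2, a Calvin cycle aldolase, fell by 0.66 (SE 0.15, adjusted p = 0.0028). In djc31, 2 of the 6 rose, where 13.3% of loci tested rose, with sums of 1552839 to 2128216. That count was 0 without wild type replicate 1, wild type replicate 2, djc31 replicate 1 or djc31 replicate 2, with no filter, and in limma on those genotypes alone. These sums overlapped with wild type. In djc31 0 leaf markers fell in limma, and 1 fell in DESeq2, where 3017 of 19975 loci tested fell. With total-count scaling 1 fell as well, where 3628 of 20007 fell. CA1 of this list read 112274 ± 9100 in wild type and 93231 ± 2912 in djc31. In djc62 the sums were 1123268 to 1397906. The part of tissue composition in the differences of the 10 genes was not tested.

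**Figure D2:**
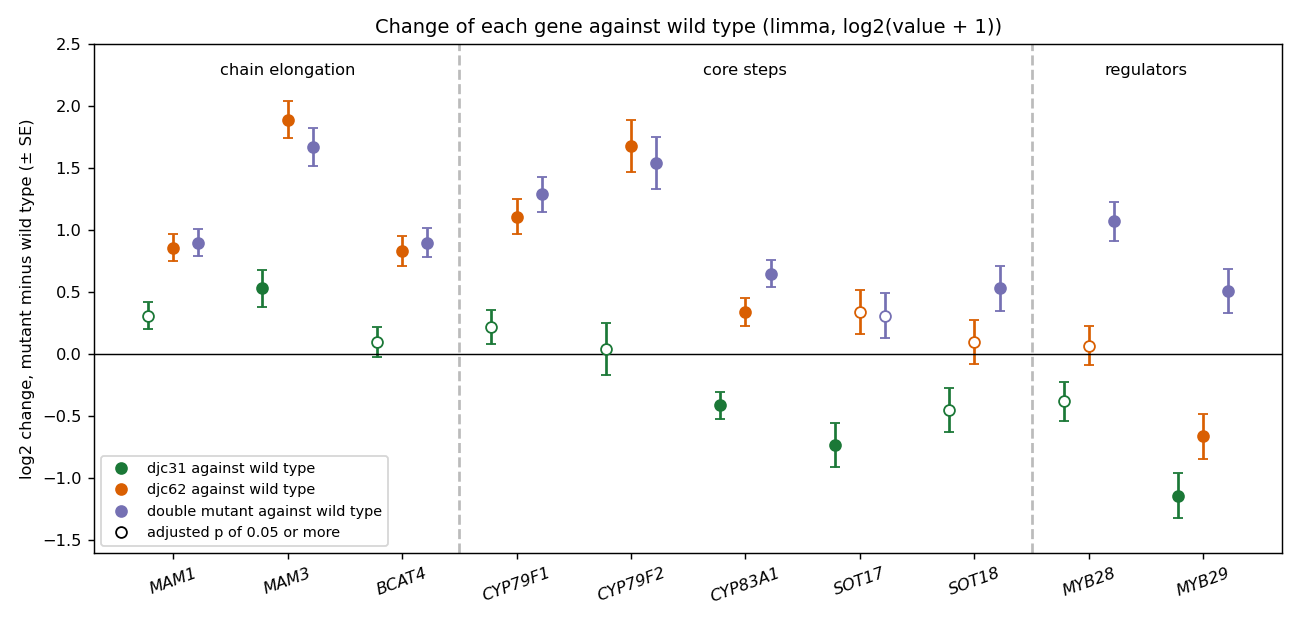
Log2 differences from wild type of the 10 genes in djc31, djc62 and the double mutant, with bars of 1 standard error; filled points passed an adjusted p of 0.05 in limma and open points did not. The djc31 points lie between -1.14 and 0.53, and 9 of the 10 double mutant points are filled and above 0.

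The single mutants differed from each other in all the elongation genes and in 4 of the 5 core genes. In djc62 against djc31, 7 of the 10 were higher, where 7.91% of loci tested were higher, 5.85% lower and 13.8% were called in either direction. CYP79F2 differed by 1.64 ± 0.21 (adjusted p = 0.000227), MAM3 by 1.36 ± 0.15 (adjusted p = 4.62e-05), SOT17 by 1.07 ± 0.18 (adjusted p = 0.00141) and CYP79F1 by 0.89 ± 0.14 (adjusted p = 0.000804). CYP83A1 differed by 0.75 ± 0.11, BCAT4 by 0.72 ± 0.12 and MAM1 by 0.54 ± 0.11 (adjusted p = 0.000612, 0.000994 and 0.00516), of which MAM1 was lost in the fit of those genotypes alone (0.0517). SOT18, MYB28 and MYB29 had differences of 0.55, 0.45 and 0.48 that did not pass (adjusted p = 0.0512, 0.0639 and 0.0857). SOT18 passed without wild type replicate 2 (0.0327), wild type replicate 3 (0.019) or djc31 replicate 1 (0.0204), MYB28 without djc31 replicate 3 (0.0194) or djc62 replicate 1 (0.0429), and MYB29 without djc31 replicate 3 (0.0449).

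The double mutant stood above djc31 in every one of the 10 genes. In the double mutant against djc31, 10 of 10 were higher, where 15.3% of loci tested were higher, 16% lower and 31.3% were called in either direction, and the median difference was 1.06 beside 0.034 over all loci. The differences ran from 0.59 ± 0.11 for MAM1 (adjusted p = 0.00111) to 1.65 ± 0.18 for MYB29 (adjusted p = 8.75e-06), with 1.45 ± 0.16 for MYB28 (adjusted p = 7.06e-06) and 1.06 ± 0.11 for CYP83A1 (adjusted p = 6.83e-06). All 10 calls held when each library was left out in turn.

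Against djc62, the double mutant was called in the regulator genes and in none of the enzyme genes. MYB28 was higher by 1.0 ± 0.16 (adjusted p = 0.000281) and MYB29 by 1.17 ± 0.18 (adjusted p = 0.000271), the 2 genes of 10 called, where 9.38% of loci tested were higher, 10.4% lower and 19.7% were called in either direction. The enzyme genes had differences of 0.04 ± 0.11 for MAM1, -0.22 ± 0.15 for MAM3, 0.08 ± 0.12 for BCAT4, 0.18 ± 0.14 for CYP79F1 and -0.13 ± 0.21 for CYP79F2 (adjusted p = 0.841, 0.31, 0.69, 0.4 and 0.718). SOT17 differed by -0.03 ± 0.18 (adjusted p = 0.93). CYP83A1, at 0.30 ± 0.11 (adjusted p = 0.0705), passed without djc31 replicate 1 (0.0444), in DESeq2 (0.0402), in the fit of those genotypes alone (0.0253) and with upper-quartile factors (0.0285). SOT18, at 0.44 ± 0.18 (adjusted p = 0.0984), passed without wild type replicate 3 (0.0439) and in the fit of those genotypes alone (0.00482). With libraries scaled to total counts, which moved the median of all loci by 0.196 in this comparison, CYP83A1, SOT18 and CYP79F1 also passed.

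The non-additive contrast sets the change in the double mutant against the sum of the changes in both single mutants. It was called in 6 of the 10 genes, 5 above the sum and MAM3 below it, where 15.8% of loci tested were above, 15.4% below and 31.2% called in either direction. For MYB29 the single-mutant changes summed to -1.80 and the double mutant stood at 0.51, a difference of 2.31 ± 0.26 (adjusted p = 3.71e-06). For MYB28 the sum was -0.31 and the double mutant 1.07, a difference of 1.38 ± 0.22 (adjusted p = 0.000149). CYP83A1, SOT18 and SOT17 lay above their sums by 0.71 ± 0.16, 0.88 ± 0.25 and 0.70 ± 0.26 (adjusted p = 0.00278, 0.0136 and 0.0471). The SOT17 call was lost without any 1 of 10 libraries, all but wild type replicate 2 and djc31 replicate 1, with adjusted p from 0.0578 to 0.118, and with no filter (0.0786).

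In MAM3 the single-mutant changes summed to 2.42 and the double mutant reached 1.67, a difference of -0.76 ± 0.21 (adjusted p = 0.01, and 0.156 with libraries scaled to total counts). For MAM1, BCAT4, CYP79F1 and CYP79F2 the differences were -0.27 ± 0.16, -0.03 ± 0.16, -0.05 ± 0.20 and -0.17 ± 0.30, and none passed. MAM3 had the lowest value of the 10 in this contrast and MYB29 the highest.

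**Figure D3:**
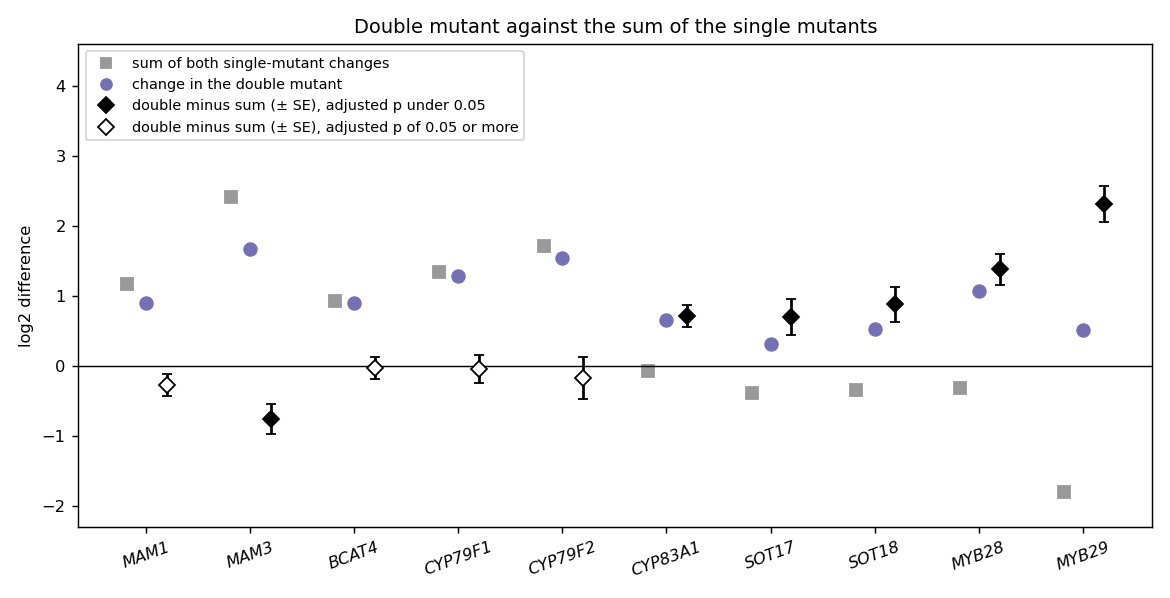
Log2 change of each of the 10 genes in the double mutant against wild type (circles), the sum of its changes in djc31 and djc62 (squares), and the difference between them with 1 standard error (diamonds, filled where the adjusted p in limma was under 0.05). MYB29 pairs a sum of -1.80 with a double mutant change of 0.51, and MAM3 pairs a sum of 2.42 with 1.67.

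The other chain elongation genes rose in part with BCAT4, MAM1 and MAM3. Of 6, 3 rose in djc62 and 4 in the double mutant, where 13.7% and 13.8% of loci tested rose, and 1 fell in djc31, where 14.2% fell. IPMDH1, the dehydrogenase of the cycle, rose by 0.59 ± 0.10 in djc62 (adjusted p = 0.000389) and by 0.68 ± 0.10 in the double mutant (adjusted p = 0.000118). IPMI-SSU3, an isomerase subunit, rose by 0.59 ± 0.14 and 0.81 ± 0.14 (adjusted p = 0.00409 and 0.000296). BASS5, the transporter that carries the keto acids into the plastid, fell by 0.56 in djc31 (SE 0.11, adjusted p = 0.00139) and rose by 0.51 ± 0.11 in the double mutant (adjusted p = 0.00281). BCAT3, an aminotransferase that shares the type of reaction with BCAT4, read 4417 ± 329.1 in wild type, 4477 ± 391.4 in djc31, 4851 ± 369.2 in djc62 and 4091 ± 213.5 in double mutant plants, and was not called against wild type in any mutant. The count in djc31 became 2 without wild type replicate 2 or djc31 replicate 2, in DESeq2 and with total-count scaling.

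Of the related genes of leucine synthesis itself, 3 of 4 fell in the double mutant, where 15.5% of loci tested fell. With libraries scaled to total counts 1 did, where 1430 of 20007 loci tested fell. IPMS2, an isopropylmalate synthase related to the MAM enzymes, read 1393 ± 125.7 in wild type, 1320 ± 116.6 in djc31, 1290 ± 14.6 in djc62 and 875.3 ± 29.2 in double mutant plants. It fell by 0.67 in the double mutant (SE 0.10, adjusted p = 0.000149). IPMDH2 fell by 0.51 there (SE 0.12, adjusted p = 0.00489, and 0.105 with total-count scaling). IPMS1, the other isopropylmalate synthase, fell by 0.34 (SE 0.10, adjusted p = 0.0158), a call lost with total-count scaling (0.644) and without wild type replicate 1 (0.0547) or double mutant replicate 1 (0.0905).

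Of the core genes between CYP83A1 and the sulfotransferases, 5 of 6 were tested, and 3 fell in djc31, where 14.2% of loci tested fell. UGT74C1, a glucosyltransferase that works on methionine-derived intermediates, read 1589 ± 260.0 in wild type, 908.3 ± 71 in djc31, 1587 ± 110.0 in djc62 and 1930 ± 128.9 in double mutant plants. UGT74C1 fell by 0.80 in djc31 (SE 0.12, adjusted p = 8.2e-05), as did UGT74B1, the other glucosyltransferase of this step, by 0.80 (SE 0.18, adjusted p = 0.00257). GGP1, a peptidase that trims the glutathione conjugate, rose in djc62 by 0.72 ± 0.16 (adjusted p = 0.00263). It was the single gene of these 5 called higher there in limma. The count was 2 without wild type replicate 3, djc31 replicate 1, djc31 replicate 3 or djc62 replicate 2. It was also 2 in edgeR, in DESeq2 and with total-count scaling. In the double mutant 0 of the 5 were called, where 13.8% of loci tested rose and 15.5% fell, and their median difference was 0.29. There the higher count was 3 without wild type replicate 3 and 1 without djc31 replicate 1 or djc31 replicate 3. It was 2 in the fit of those genotypes alone and 5 with total-count scaling, where 5811 of 20007 loci tested rose. GSTF11, a glutathione transferase of the pathway, is listed at 0 in every library and overlaps AT3G03200 in the RefSeq annotation.

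Of the genes that change the finished side chain, 7 were tested and 4 fell in djc31, where 14.2% of loci tested fell. GSL-OH, the oxygenase that makes hydroxylated butenyl glucosinolate, read 6692 ± 250.0 in wild type, 3534 ± 15.7 in djc31, 7799 ± 480.4 in djc62 and 8433 ± 376.2 in double mutant plants. It fell by 0.92 in djc31 (SE 0.09, adjusted p = 7.66e-07) and rose by 0.33 ± 0.09 in the double mutant (adjusted p = 0.0105, and 0.0524 without double mutant replicate 1). FMO-GSOX3, one of the S-oxygenases that turn methylthio into methylsulfinyl side chains, fell by 0.80 in djc31 (SE 0.15, adjusted p = 0.000529). FMO-GSOX5, a relative that acts on long chains, fell by 0.71 in the double mutant (SE 0.12, adjusted p = 0.000244).

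FMO-GSOX2, named after its values were seen, read 250.9 ± 28.1 in wild type, 119.5 ± 36.2 in djc31, 135.4 ± 6.18 in djc62 and 407.5 ± 80.7 in double mutant plants, below wild type in both single mutants and above it in the double. In the double mutant 3 of the 7 tested side chain genes rose and 2 fell, where 13.8% of loci tested rose and 15.5% fell. Without double mutant replicate 1 these counts were 1 and 1, without wild type replicate 1 the second was 1, and with total-count scaling they were 5 and 1. That scaling called 5811 of 20007 loci tested higher and 1430 lower in this comparison. AOP3 is listed at 0 in every library.

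MYB76, the third transcription factor of the MYB28 and MYB29 group and the neighbour of MYB29 on the chromosome, fell in djc31. It read 132.4 ± 36.8 in wild type, 57 ± 5.89 in djc31, 109.2 ± 26.4 in djc62 and 185.9 ± 10.7 in double mutant plants. Its difference was -1.17 ± 0.23 in djc31 (adjusted p = 0.000988), -0.27 ± 0.23 in djc62 (adjusted p = 0.43) and 0.52 ± 0.23 in the double mutant (adjusted p = 0.103).

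SDI1 and SDI2 are sulfur-deficiency-induced genes, and SDI1 is known to repress glucosinolate synthesis through MYB28. SDI2 read 335.3 ± 18.6 in wild type, 62.6 ± 17.6 in djc31, 120.9 ± 25.7 in djc62 and 335.0 ± 72.1 in double mutant plants. It fell by 2.44 in djc31 (SE 0.23, adjusted p = 4.33e-07) and by 1.49 in djc62 (SE 0.23, adjusted p = 0.000107), and stood at -0.02 ± 0.23 in the double mutant (adjusted p = 0.956). SDI1 fell by 1.16 in djc31 (SE 0.30, adjusted p = 0.00694). Of the 5 regulators tested beside MYB28 and MYB29, 3 fell in djc31 and 1 fell in djc62, where 14.2% and 13% of loci tested fell. The djc62 count became 2 without djc31 replicate 2 or djc31 replicate 3, with a pseudocount of 5, with upper-quartile factors and in DESeq2. MYC2, a partner of these MYB factors, is listed at 0 in every library and overlaps AT1G32630 in the RefSeq annotation, so no value is given for it.

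The transporters that move glucosinolates between tissues were called in different mutants. GTR1 read 754.7 ± 190.3 in wild type, 194.4 ± 35.3 in djc31, 855.7 ± 95.2 in djc62 and 802.6 ± 125.5 in double mutant plants, and fell by 1.94 in djc31 (SE 0.18, adjusted p = 4.05e-07). GTR2 read 764.0 ± 51.2 in wild type and 1336 ± 79.1 in the double mutant, a rise of 0.81 ± 0.12 (adjusted p = 7.49e-05), and rose by 0.45 ± 0.12 in djc62 (adjusted p = 0.00881).

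Of 4 genes that supply the sulfate donor of SOT17 and SOT18, 2 fell and 1 rose in djc31, where 14.2% of loci tested fell and 13.3% rose. APK1 and APK2, the kinases that make that donor, fell in djc31 by 0.62 (SE 0.15, adjusted p = 0.00421) and by 0.60 (SE 0.12, adjusted p = 0.00134). APK2 rose by 0.52 ± 0.12 in djc62 (adjusted p = 0.00402) and by 0.55 ± 0.12 in the double mutant (adjusted p = 0.00253). APS4, a sulfurylase of the step before, rose in djc31 by 0.46 ± 0.13 (adjusted p = 0.0175), a call lost without wild type replicate 2 (0.0533) or djc31 replicate 2 (0.0882), in the fit of those genotypes alone (0.0668) and with total-count scaling (0.0982). APS1, another sulfurylase, had a difference of -0.02 ± 0.10 there (adjusted p = 0.921).

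**Figure D4:**
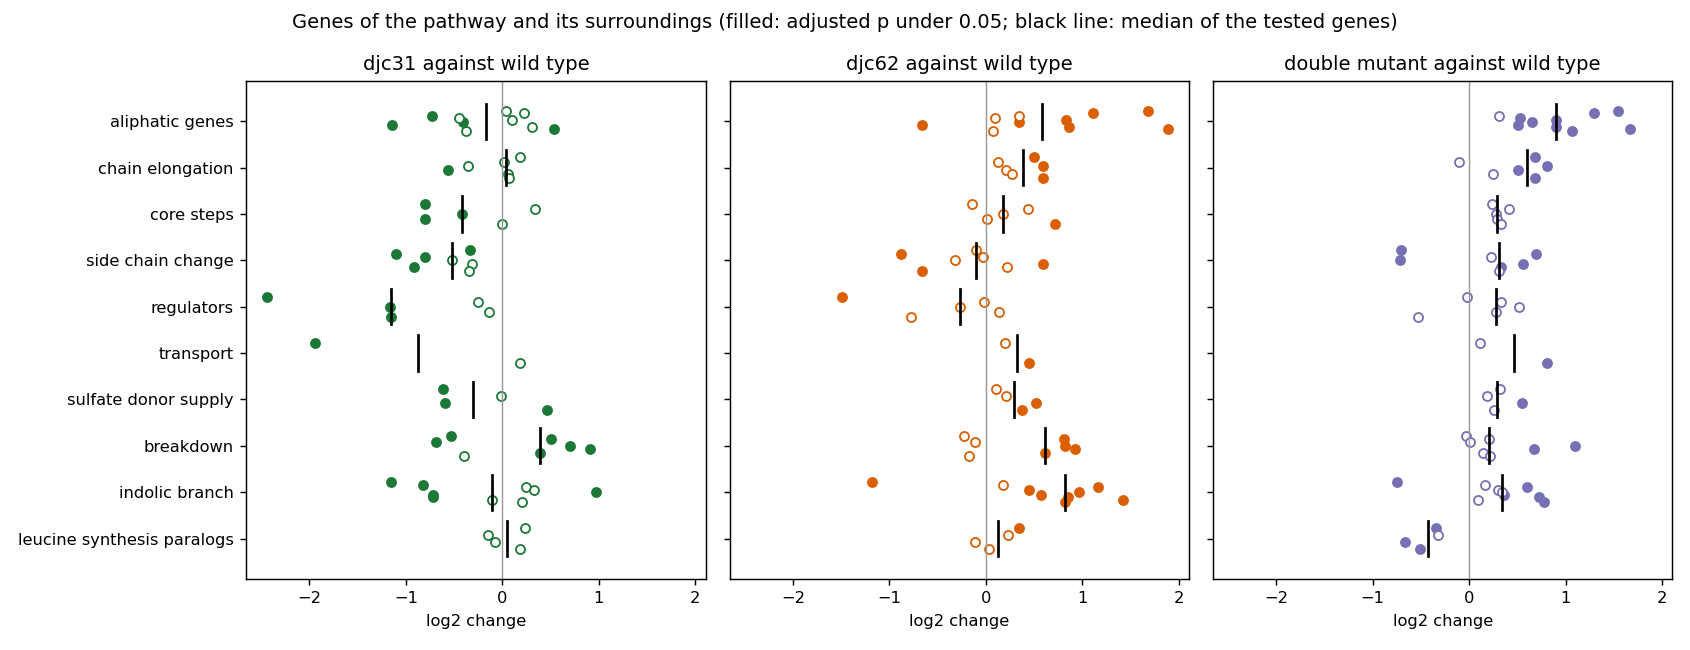
Log2 change against wild type of each tested gene, 1 panel per mutant, for the 10 aliphatic genes and for each surrounding list; filled points passed an adjusted p of 0.05 in limma, and black lines are list medians. The 10 aliphatic genes have 9 filled points above 0 in the double mutant, and the side chain list has 4 filled points below 0 in djc31.

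Of 7 genes of glucosinolate breakdown, 4 rose and 2 fell in djc31, where 13.3% of loci tested rose and 14.2% fell, and 4 rose in djc62, where 13.7% rose. TGG2, a myrosinase, read 9662 ± 703.3 in wild type, 18142 ± 1404 in djc31, 18352 ± 2590 in djc62 and 15351 ± 1284 in double mutant plants. It rose by 0.91 ± 0.12 in djc31 (adjusted p = 1.78e-05), by 0.92 ± 0.12 in djc62 (adjusted p = 1.79e-05) and by 0.67 ± 0.12 in the double mutant (adjusted p = 0.000454). NSP1, a specifier protein that directs breakdown to nitriles, rose by 0.70 ± 0.14, 0.82 ± 0.14 and 1.1 ± 0.14 in djc31, djc62 and the double mutant (adjusted p = 0.00114, 0.00031 and 2.08e-05). PEN2, an atypical myrosinase of the indolic branch, rose by 0.50 ± 0.11 in djc31 and by 0.81 ± 0.11 in djc62 (adjusted p = 0.00317 and 4.89e-05). The genes that fell in djc31 were ESM1, a modifier of the breakdown products, by 0.69 (SE 0.15, adjusted p = 0.00188), and ESP, a specifier protein, by 0.53 (SE 0.13, adjusted p = 0.00514), both named after their values were seen.

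The indolic branch, which starts from tryptophan, had 7 of 9 tested genes higher and 1 lower in djc62, where 13.7% of loci tested rose and 13% fell. In the double mutant 4 were higher and 1 lower, where 13.8% rose and 15.5% fell. With total-count scaling 7 were higher, where 5811 of 20007 loci tested were called higher. The 1 lower was not called without wild type replicate 1, wild type replicate 2, double mutant replicate 1 or double mutant replicate 3, or with total-count scaling. In djc31 4 were lower and 1 higher, where 14.2% fell and 13.3% rose, and 2 were higher without djc31 replicate 1 or djc31 replicate 3. GSTF10, a glutathione transferase, rose there by 0.97 ± 0.15 (adjusted p = 0.000107). CYP79B3, an aldoxime-forming enzyme of the indolic branch, read 2205 ± 115.2 in wild type, 2607 ± 289.0 in djc31, 4917 ± 283.7 in djc62 and 3388 ± 799.2 in double mutant plants. It rose by 1.16 ± 0.13 in djc62 (adjusted p = 5.79e-06) and by 0.60 ± 0.13 in the double mutant (adjusted p = 0.00311). CYP79B2, the other enzyme of this step, was named after its values were seen. It read 805.1 ± 110.4 in wild type, 497.4 ± 123.0 in djc31, 1441 ± 118.1 in djc62 and 1326 ± 147.1 in double mutant plants. CYP83B1, the indolic counterpart of CYP83A1, fell by 0.72 in djc31 (SE 0.12, adjusted p = 0.000181) and rose by 0.57 ± 0.12 in djc62 (adjusted p = 0.00163). The median difference in djc62 was 0.82 over the indolic genes and 0.58 over the 10 aliphatic genes, so a rise in djc62 was found in both branches and the difference between them was not tested.

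Markers of cells known for glucosinolates or myrosinase did not move in 1 direction. Summed over TGG1, TGG2 and FAMA, myrosin cell markers reached 36744 to 42824 in wild type, 53425 to 61198 in djc31, 57759 to 71933 in djc62 and 44989 to 50905 in the double mutant. TGG1, with 28883 ± 2542 in wild type, and TGG2 made up most of these sums, and both are also among the breakdown genes above. FAMA, which specifies these cells, had 510.1 ± 61.4 in wild type and was not called in any mutant with all libraries in the fit. Without djc31 replicate 3 it was called lower in djc31, where 2870 of 19920 loci tested fell. Vascular marker sums were 7033 to 7904 in wild type, 7786 to 8669 in djc31, 7782 to 9058 in djc62 and 7927 to 8489 in the double mutant. SWEET12, a phloem sucrose exporter, rose by 1.36 ± 0.20, 1.64 ± 0.20 and 1.11 ± 0.20 in djc31, djc62 and the double mutant (adjusted p = 5.52e-05, 8.38e-06 and 0.000461). APL, a phloem identity factor, went the other way, with 654.3 ± 36.8 in wild type and a fall of 0.51 in djc62 (SE 0.13, adjusted p = 0.00672) and of 0.57 in the double mutant (SE 0.13, adjusted p = 0.00316, and 0.132 with total-count scaling). Of the 8 vascular markers, 2 were called higher and 2 lower in each of these mutants. Of loci tested, 13.7% rose and 13% fell in djc62, and 13.8% rose and 15.5% fell in the double mutant. Without 1 library the lower count was 1 or 2 in both mutants and the higher count 1 or 2 in the double mutant.

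Root marker sums were 3049 to 3171 in wild type and 5498 to 6116 in the double mutant. PYK10, a root and hypocotyl glucosidase, was the highest of these markers in every genotype, with 1422 ± 154.0 in wild type and 4293 ± 333.2 in the double mutant. It was the 1 of 5 tested root markers called higher there, where 13.8% of loci tested rose. GL2 read 161.9 ± 34.8 in wild type and 127.3 ± 22.7 in the double mutant, and SCR 912.1 ± 162.2 and 808.4 ± 75.5, and RHD6 is listed at 0 in every library. In djc31 SCR read 530.0 ± 49.7. Of the 5 tested, 1 rose and 1 fell in djc31, where 13.3% of loci tested rose and 14.2% fell. The 1 that rose there was lost without wild type replicate 3 or djc31 replicate 2, in the fit of those genotypes alone and with total-count scaling. In djc62 1 of the 5 rose, where 13.7% of loci tested rose. Of 5 guard cell markers, 2 fell in the double mutant, where 15.5% of loci tested fell, and the median difference was -0.69. That count was 1 to 3 without 1 library, and 1 with total-count scaling, where 1430 of 20007 loci tested fell. MYB60 fell there by 0.84 (SE 0.15, adjusted p = 0.000355). KAT1, the other, read 559.6 ± 52.3 in wild type and 347.8 ± 52.1 in the double mutant. The part of these cell types in the differences of the 10 genes was not tested.

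The loci whose values over the 12 libraries were most like the mean standardised profile of the 10 genes were SBP2 (AT4G14040), with a Pearson r of 0.983, and IPMI-SSU3 (AT3G58990), with an r of 0.978. Next came AT4G01390 and CRK23 with 0.975 each, AK-HSDH I with 0.963, AT1G52000 with 0.961, PAO2 with 0.959, AT5G26600 with 0.957, GBF3 with 0.954 and HMT3 with 0.945. CRK23 read 2.22 ± 2.32 in wild type, 0 in djc31, 16.4 ± 9.55 in djc62 and 40.1 ± 9.28 in double mutant plants. A single read gave a value of 0.744 to 2.15, and CRK23 passed the filter through djc62 and double mutant libraries alone. Its r therefore mostly sets values near 0 against detected ones. In all, 34 loci other than the 10 had an r of at least 0.9. AK-HSDH I, a bifunctional enzyme on the route from aspartate to methionine, read 1405 ± 187 in wild type, 1315 ± 113 in djc31, 2109 ± 137 in djc62 and 2131 ± 43 in double mutant plants. HMT3, a homocysteine methyltransferase that makes methionine, read 290.3 ± 21.8 in wild type, 333.5 ± 50.9 in djc31, 635.3 ± 52.3 in djc62 and 731.2 ± 100 in double mutant plants. These correlations describe libraries that fall into 4 genotypes. Within genotypes, the 45 pairs among the 10 genes had a median r of 0.22, with 31 above 0.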

How the data were processed

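Trimmomatic, FastQC, featureCounts and the build TAIR10 are named per the submitters' processing notes, with no role or order. The sources used here do not state versions, the aligner, a strand setting, or how reads with several matching places were handled. In the deposited table, each locus has 1 normalised signal value per library, and its sheet name, per the file headers, names DESeq2. Each library's values were whole multiples of its smallest step (100% of them, with a tolerance of 0.01). Because the values were normalised, limma 3.58.1 (R 4.3.3) with a mean-variance trend was fitted to log2(value + 1) over all 12 libraries, 1 mean per genotype and no covariate. A locus entered when 3 or more libraries had a value of 10 or more, which left 19975 loci. P-values were adjusted by Benjamini-Hochberg over all loci within each comparison, with a threshold of 0.05. Folds on this scale understate the change of low genes. The script was tested on simulated data. Alternatives were pseudocounts of 0.5 and 5, no filter and a filter at 50, TMM, upper-quartile and total-count scaling, edgeR 4.0.16 and DESeq2 1.42.0 on the recovered reads, a replicate block, a fit of the compared genotypes alone, and leaving out each library.

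The 10 genes and the surrounding lists were chosen with earlier results of these data known. All 10 genes are named, as are MYB76 and the elongation and core genes that share a step with one of them. The 10 loci most like the mean standardised profile are named too. Up to 3 genes per list with the lowest adjusted p against wild type were also chosen, of which LHCB1.1 and SWEET11 are not described. AOP2 was not analysed here, and no sequences were used.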

Additional observations from a re-analysis of the deposited data

Results flagged for a closer look

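Effects of the djc62 mutation differed between the wild-type and djc31 backgrounds in 6 of the 10 genes, by the test of the non-additive contrast in limma. The double mutant lay above the sum of the single-mutant changes by 2.31 on the log2 scale for MYB29, 1.38 for MYB28, 0.88 for SOT18, 0.71 for CYP83A1 and 0.70 for SOT17, and differed from the sum by -0.76 for MAM3. Of the loci tested, 31.2% were called in this contrast. Leaving out each library in turn gave 5 to 6 called genes, and the SOT17 call was lost in most of these fits. The MAM3 call was lost in limma with libraries scaled to total counts (adjusted p = 0.156). No other search for single outlying libraries was made in the groups of 3.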

How the results depend on the processing

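Over 70 results and 1600 alternatives, 1496 kept their direction and their side of the threshold, 36 passed it anew, 36 no longer passed and 32 changed sign, none of the last called in either setting; the cause was not tested. Of the 10 genes, 4 were called in djc31 against wild type, 7 in djc62, 9 in the double mutant, 10 in the double mutant against djc31, 2 against djc62, 7 in djc62 against djc31 and 6 in the non-additive contrast. Leaving out each library in turn gave 3 to 5, 5 to 7, 7 to 9, 10 to 10, 2 to 3, 7 to 9 and 5 to 6. In the double mutant against djc62, the count was 5 with total-count (CPM) scaling, chosen after seeing the data, and 4 in the fit of those genotypes alone. With the replicate number as a block the counts were 5, 7, 9, 10, 2, 7 and 6. Libraries with the same number had correlations of their deviations from -0.151 to 0.106, with 1 of 18 pairs over 0.1. No clear shared effect of the replicate number was seen. These values cannot show whether libraries with the same number were grown or handled together. CPM scaling moved the median of all loci by -0.131, 0.0696, 0.265, 0.397, 0.196, 0.201 and 0.327 in the order above. Loci called higher and lower went from 2748 and 3091 to 5811 and 1430 in the double mutant against wild type, and from 3057 and 3198 to 8526 and 852 against djc31.

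Signs changed in djc31 against wild type for BCAT4 with CPM scaling (-0.03) and for CYP79F2 with CPM scaling (-0.09) and in DESeq2 (-0.00), and with 1 library left out the CYP79F2 value ran from -0.16 to 0.20. In djc62 the values with 1 library left out ran from -0.09 to 0.31 for SOT18 and from -0.02 to 0.17 for MYB28. In the double mutant against djc62 they ran from -0.07 to 0.14 for MAM1, from -0.03 to 0.14 for BCAT4 and from -0.11 to 0.03 for SOT17. There CYP79F2 was at 0.06 with CPM scaling, and SOT17 at 0.05 with upper-quartile factors and 0.17 with CPM scaling. In the non-additive contrast, CPM scaling gave 0.06 for MAM1, 0.30 for BCAT4, 0.28 for CYP79F1 and 0.16 for CYP79F2, and upper-quartile factors gave 0.04 for BCAT4 and 0.03 for CYP79F1. Leaving out 1 library gave -0.13 to 0.05 for BCAT4, -0.19 to 0.09 for CYP79F1 and -0.34 to 0.02 for CYP79F2. CYP79F2 had the fewest reads among these genes, with at least 36 behind each value. The part of low reads in its sign changes was not tested.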

Other observations

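Ratios between close copies were compared across genotypes. The MAM3 value was 4.17% ± 0.332 (SD, n = 3) of the MAM1 value in wild type, 4.88% ± 0.636 in djc31, 8.56% ± 0.715 in djc62 and 7.12% ± 0.425 in double mutant plants, with no overlap between the first and the last pair of genotypes. For CYP79F2 as a share of CYP79F1 the values were 2.87% ± 0.883, 2.45% ± 0.303, 4.16% ± 0.364 and 3.36% ± 0.446, with overlaps. SOT18 stood at 136% ± 9.15 of the SOT17 value in wild type, 166% ± 23.1 in djc31, 115% ± 5.83 in djc62 and 159% ± 9.97 in double mutant plants. These ratios were not tested, and they are read across genotypes only, since transcript lengths were not used.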
